A study of Mus musculus with 54 samples.

Results

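Ptgds, which encodes the lipocalin-type prostaglandin D synthase, and 9 other genes of prostaglandin and lipoxygenase synthesis were followed in the trigeminal ganglion (TG), the cornea and sorted myeloid cells of mice lacking the miR-183/96/182 cluster (miR-183C). The 10 genes were Ptgds, Ptgs1, Ptgs2, Ptges, Ptges2, Ptges3, Alox5, Alox12, Alox12e and Alox15, out of 35976 gene rows of the count table. They were taken by name, and Ptgds was chosen by its lower level in the SNS-CKO corneas. The cornea values of the SNS strain are therefore given, for every gene of the set, as a description with no test.

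The study asked what miR-183C does in the sensory nerves and in the resident myeloid cells of the cornea, and counted polyadenylated RNA from its 3′ end in naïve male mice of 8–12 weeks. In SNS-CKO mice both miR-183C alleles were floxed (f/f) and deleted by Nav1.8-Cre(+/-), driven from a sodium channel gene of pain-sensing neurons, beside the reporters Csf1r-EGFP(+/+) and R26 LSL-RFP(+/+), and their WT littermates carried the same Cre, RFP and EGFP alleles with miR-183C +/+. MS-CKO mice carried the same floxed alleles with LysM-Cre(+/-), a Cre inserted into Lyz2 (which disrupts that copy of Lyz2), and Csf1r-EGFP(+/+), and their WT littermates were LysM-Cre(-/-) with the same floxed and EGFP alleles. KO mice carried a homozygous gene-trap allele in every cell on a mixed 129S2/C57BL/6 background with Csf1r-EGFP, and their WT mice carried Csf1r-EGFP and miR-183C +/+. TG and cornea were each read in 3 libraries of SNS-CKO and 4 of SNS-strain WT mice, and in 5 of MS-CKO and 5 of their WT mice. Csf1r-EGFP-positive cells from the cornea (corneal resident myeloid cells, CRMCs) and from the spleen were read in 1 pool of several mice for KO and for MS-CKO, and in 1 for the WT mice of each of these strains. All SNS-strain columns end in a B2 tag, as do those of 2 MS-CKO libraries and 1 MS-strain WT library of each tissue. The other TG and cornea columns carry no such tag, and the tagged and untagged libraries were treated as separate batches, which is an inference from the names.

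The libraries held between 2366126 and 6741290 counts in the cornea, 2934793 and 5387042 in the TG, 2261266 and 10803867 in the CRMC pools and 5140261 and 9790238 in the spleen pools. Levels are given as CPM, each count scaled by the total of its library. The cornea and the TG were told apart by the summed level of 6 corneal epithelial markers, at 69490 to 82300 CPM in cornea against 264 to 345 in TG. Most of the TG sum was 1 of these markers, Tkt, at 237 to 301 CPM. Cornea MS-strain WT library 1 stood apart from the other 16 corneas, with a summed level of 10 lens markers of 1008 CPM. MS-strain WT library 2 was the next, at 335 CPM, and the other 15 corneas were at most at 45.5 CPM. In addition, 11 columns whose names point to the KO strain were equal in every row to columns read as MS strain. Among them, 1 named for a WT ganglion equalled TG MS-CKO library 3. Another, named for a KO ganglion, equalled cornea MS-strain WT library 4, whose epithelial sum was in the cornea range. Which names are right is not known, so the genotype and strain names of the MS-strain libraries are not beyond doubt. The strain is not spelled out in the names of the TG and cornea columns: those with NACC in their names were taken as the SNS strain, and every SNS and MS value rests on that reading. The deletion was not checked in these libraries. Mir183, Mir96 and Mir182 had 0 counts in every one and so could not show it, and no other gene was used for this. The CRMC pools held 1650 to 6455 detected genes, against 7323 to 10559 in the spleen pools, and in them corneal epithelial markers summed to 10322 to 42154 CPM and keratocyte markers to 7696 to 66189 CPM. Csf1r, the gene whose promoter drove the sort, was read at 182 to 1029 CPM in the CRMC pools, but Adgre1 and Aif1 were at 0 in the MS-strain WT pool, Cx3cr1 in the KO-strain WT pool, and Ptprc, Adgre1 and Cx3cr1 in the KO pool.

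Eicosanoids are signalling lipids made from arachidonic acid. Cyclooxygenases (Ptgs1 and Ptgs2) convert it to an unstable intermediate, from which terminal synthases make prostaglandin D2 (Ptgds and the haematopoietic enzyme Hpgds) or prostaglandin E2 (Ptges, Ptges2 and Ptges3), while lipoxygenases (the Alox genes) make leukotrienes and hydroxylated fatty acids. Ptgds is also a secreted carrier of lipids, known as a product of the leptomeninges and of the retinal pigment epithelium. In the cornea, lipoxygenase products of the epithelium take part in wound healing, and in sensory ganglia prostaglandins act on nociceptors.

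The deleted cluster encodes 3 miRNAs whose seeds (bases 2 to 8, in capitals) pair with target transcripts, and they are shown because they define which genes of the set hold a direct match. miR-183-5p and miR-96-5p share the last 6 bases of the seed, and miR-96-5p and miR-182-5p share its first 6 bases. All lie on the minus strand of chromosome 6 (GRCm38.p6, sequences from RefSeq).
mmu-miR-183-5p: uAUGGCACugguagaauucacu
mmu-miR-96-5p: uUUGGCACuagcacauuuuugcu
mmu-miR-182-5p: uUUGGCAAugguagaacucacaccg

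Among the 3′ UTRs of the 10 genes, each taken from the transcript with the longest one in the GENCODE annotation of mm10, only that of Ptges held a match of 7 bases to any of the 3 seeds. Of 21669 genes with an annotated 3′ UTR, 22.3% held at least 1 such match on the transcribed strand. GTGCCAT, the match of miR-183-5p, was held by 8.5% of these genes. GTGCCAA, that of miR-96-5p, was held by 7.64%. TTGCCAA, that of miR-182-5p, was held by 10.6%. The UTR of Ptges was 3109 bases long and that of Ptgds 165. The sites of Ptges, the inducible prostaglandin E synthase, lie on the minus strand of chromosome 2 (mm10) at chr2:30890194-30890222 for miR-183-5p and chr2:30891555-30891583 for miR-96-5p, and the match is in capitals.
Ptges, miR-183-5p: tcagtacctgtGTGCCATggtatgaagtt
Ptges, miR-96-5p: gcaccaccataGTGCCAAgccagtacagg

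Ptgds (chr2:25466709-25470110, GRCm38.p6) was read at its highest level in the TG and at a far lower level in the cornea. In the TG, the SNS-CKO libraries were at 2979, 4548 and 1336 CPM and the SNS-strain WT libraries at 1973, 2328, 2861 and 3686 CPM. The MS-CKO ganglia were at 3684, 2766, 1926, 1886 and 3444 CPM and the MS-strain WT ganglia at 4111, 3636, 2270, 2979 and 2172 CPM. The lowest and the highest of the 17 ganglia were both SNS-CKO, and every pair of groups overlapped. In the cornea, the SNS-CKO libraries were at 52.3, 32.3 and 21.8 CPM and the SNS-strain WT libraries at 122, 97.8, 62.1 and 90.5 CPM, which did not overlap. The MS-CKO corneas were at 94.1, 13.8, 36.8, 7.79 and 29.1 CPM and the MS-strain WT corneas at 232, 45.5, 51.5, 57.9 and 35.7 CPM, which overlapped, and the value of 232 CPM is MS-strain WT library 1, while library 2, with the second highest lens sum, was at 45.5 CPM. Ptgds had 0 counts in all 8 sorted pools, with a limit of 0.278 to 1.33 CPM (3 counts of each total) that covers counting error only. The myeloid markers Ptprc, Adgre1 and Cx3cr1 also had 0 counts in the KO CRMC pool. A count of 0 in a CRMC pool therefore does not show that a gene was absent from the cells.

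By group mean of Ptgds, the order from high to low was TG MS-strain WT (3034 ± 844 CPM, SD, n = 5), TG SNS-CKO (2954 ± 1606, n = 3), TG MS-CKO (2741 ± 833, n = 5), TG SNS-strain WT (2712 ± 745, n = 4), cornea SNS-strain WT (93.1 ± 24.7, n = 4), cornea MS-strain WT (84.5 ± 82.8, n = 5), cornea MS-CKO (36.3 ± 34.3, n = 5) and cornea SNS-CKO (35.5 ± 15.5, n = 3). Neighbours within a tissue overlapped in their ranges, and the step from TG to cornea was the only one between neighbours without overlap.

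**Figure D1:**
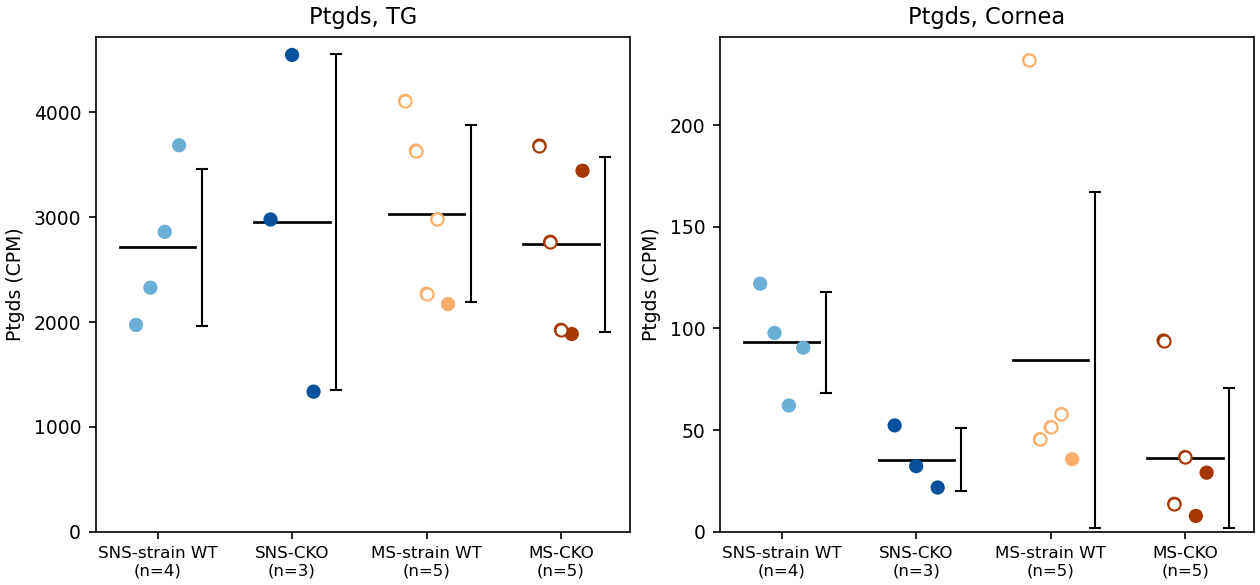
Ptgds level in each TG and cornea library (CPM), by genotype group. Bars are group means, error bars are SD, open points are libraries without the B2 tag and filled points those with it. Every ganglion lies at or above 1336 CPM and every cornea at or below 232 CPM, and in the cornea the 3 SNS-CKO libraries (21.8 to 52.3 CPM) lie below all 4 SNS-strain WT libraries (62.1 to 122 CPM).

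The first comparison set the TG against the cornea in the 9 WT libraries of each tissue, with strain as a covariate (edgeR's quasi-likelihood test, Benjamini-Hochberg adjustment over all genes, threshold 0.05). Ptgds was 29.7-fold higher in the TG (log2 difference 4.89 ± 0.29 SE, adjusted p = 4.38e-15), with medians of 2861 CPM in TG and 62.1 CPM in cornea. Without cornea MS-strain WT library 1 the difference was 5.30 on the log2 scale. Of the 10 genes, 7 passed the filter on low counts and 6 passed the test (6 also at an unadjusted p under 0.05, against 84.8% of all genes), 3 higher in the TG and 3 higher in the cornea. Over all genes 84.2% passed this test (44% higher in TG and 40.2% in cornea), so 6 of 7 is near the background. Ranges did not overlap for 5 genes of the set, against 58.1% of all genes tested. Of the 7, the median log2 difference was -0.51, against 0.07 over all genes. In these bulk tissues, fewer cells of a type and less RNA per cell cannot be told apart.

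Both sides of the pathway differed between the tissues. Ptgs1, the constitutive cyclooxygenase (chr2:36216742-36258593), was read at 1.33 to 5.93 CPM (median 3.36) in the TG and at 23.3 to 47.3 CPM (median 33.5) in the cornea, a 10.3-fold higher level in the cornea (log2 difference TG against cornea -3.37 ± 0.18, adjusted p = 2.72e-16). An annotated transcript of unknown type, Gm43621, lies on the opposite strand within Ptgs1, and whether the counting used strand is not given in the sources used here. Ptgs2, the inducible cyclooxygenase (chr1:150100031-150108234), was removed by the filter, with 0 to 0.520 CPM in the TG and 0.159 to 5.07 CPM in the cornea, whose ranges overlapped.

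Among the prostaglandin E synthases, Ptges3 (chr10:128058982-128077254), a co-chaperone of Hsp90 that also has synthase activity, was at 186 to 236 CPM (median 225) in the TG and 117 to 142 CPM (median 127) in the cornea (log2 difference 0.65 ± 0.06, adjusted p = 8.92e-11). Ptges2 (chr2:32395890-32402740), a membrane-associated synthase, was at 21.9 to 31.8 CPM in the TG and 8.45 to 20.97 CPM in the cornea (0.54 ± 0.13, adjusted p = 0.000281). Ptges (chr2:30889471-30931020) went the other way, at 3.26 to 8.80 CPM in the TG and 4.56 to 11.9 CPM in the cornea, which overlapped (-0.64 ± 0.24, adjusted p = 0.0142). In the MS-strain WT libraries alone Ptges did not pass (-0.31, adjusted p = 0.366), and a processed pseudogene, Gm13400, lies on the same strand within the gene.

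Alox12, the platelet-type lipoxygenase (chr11:70241457-70255380), separated the tissues without overlap, at 0.259 to 2.63 CPM (median 0.743) in the TG and 28.3 to 40.6 CPM (median 35.01) in the cornea. This was 31.2-fold higher in the cornea (log2 difference TG against cornea -4.96 ± 0.22, adjusted p = 6.9e-18), with a cornea mean of 35.1 ± 3.92 CPM (SD, n = 9). With few counts in the TG, Alox12 passed the filter through its cornea counts, so its direction was fixed by the filter. Alox15 (chr11:70344147-70390538), the leukocyte-type enzyme, was at 0.557 to 6.21 CPM in the TG and 0.357 to 8.26 CPM in the cornea and did not pass (-0.51 ± 0.46, adjusted p = 0.295). Alox5 (chr6:116410071-116461178), which starts leukotriene synthesis, was removed by the filter, with 0.259 to 2.07 CPM in the TG and 0 to 5.49 CPM in the cornea. Alox12e (chr11:70315610-70322720), the epidermal-type enzyme, had 0 counts in all 17 ganglia, which allows at most 0.557 to 1.02 CPM. In the corneas it was at 87.9 CPM (415 counts) in MS-strain WT library 1 and at 0 to 3.67 CPM in the other 16, so its level in the cornea rests on that library.

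**Figure D2:**
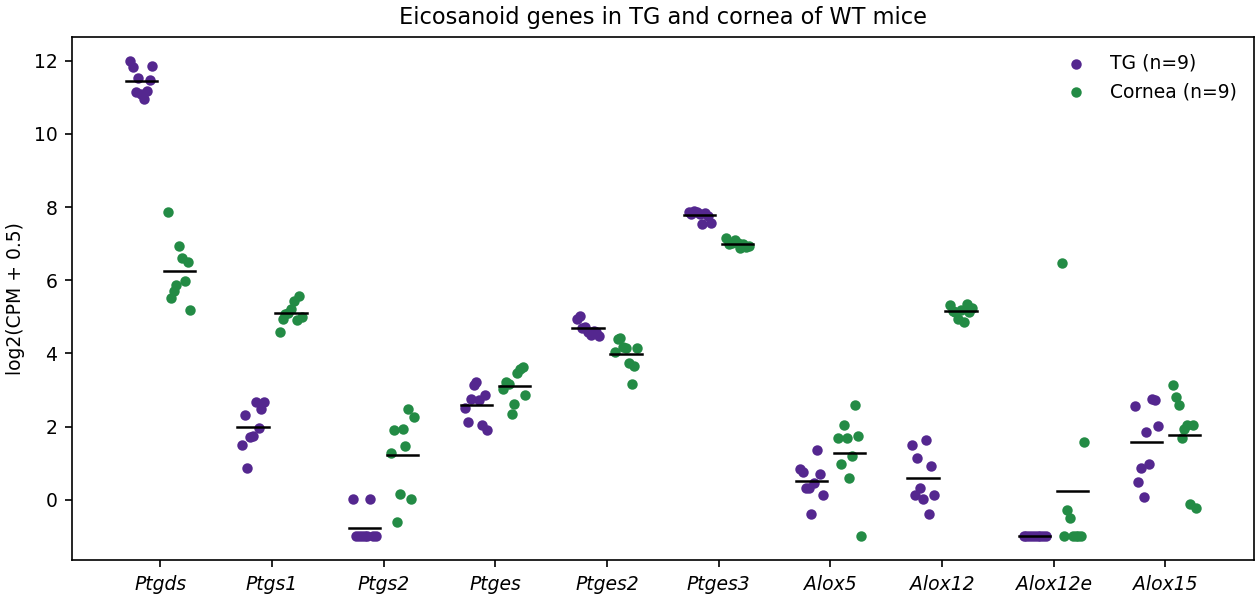
Level of each of the 10 genes in the 9 WT ganglia and the 9 WT corneas, as log2(CPM + 0.5); points are libraries and bars are means. Ptgds, Ptges2 and Ptges3 lie higher in TG, Ptgs1 and Alox12 lie higher in cornea without overlap, and the single high cornea point of Alox12e is MS-strain WT library 1.

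Genes around the set were taken from lists of the pathway, and their counts stand against 84.2% of all genes called in this contrast, 44% higher in TG and 40.2% in cornea. Of 9 tested genes of arachidonic acid release, 5 were higher in the TG and 2 in the cornea, with Pla2g7, a platelet-activating factor hydrolase, at 222 ± 29.9 CPM (SD, n = 9) in TG and 28.9 ± 5.23 CPM in cornea, and Pla2g4a, the cytosolic phospholipase that releases arachidonic acid, at 4.05 ± 1.53 and 45.4 ± 10.9 CPM. Pla2g6, a calcium-independent phospholipase, was at 33.6 ± 4.15 CPM in TG and 8.27 ± 2.01 CPM in cornea. Of 10 tested genes of other prostanoid enzymes and transport, 2 were higher in the TG and 6 in the cornea. Hpgds, the other prostaglandin D synthase, was at 3.56 ± 2.04 CPM in the TG and 243 ± 24.5 CPM in the cornea (log2 difference TG against cornea -6.31 ± 0.17, adjusted p = 6.8e-23), the opposite direction to Ptgds. Ptgr1, a prostaglandin reductase, was at 10.5 ± 2.53 and 590 ± 108 CPM, and Abcc4, an exporter of prostaglandins, at 10.8 ± 2.61 and 90.2 ± 13.2 CPM.

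Of 5 tested prostanoid receptors, 4 were higher in the TG and 0 in the cornea, against 44% and 40.2% of all genes. The filter keeps a gene that has counts in only 1 tissue. Ptgir, Ptgdr and Ptgfr, near 0 in the cornea, passed it through the TG, so their direction was fixed by the filter. The count of receptors is therefore a description. Ptgir, the prostacyclin receptor, was at 63.3 ± 6.16 CPM in TG and 0.917 ± 0.803 CPM in cornea. Ptgdr, a receptor of prostaglandin D2, was at 13.1 ± 3.13 CPM in TG and had 0 counts in all 9 WT corneas, which allows at most 0.445 to 1.27 CPM over the cornea libraries. Ptgfr was at 14.8 ± 2.95 and 0.194 ± 0.491 CPM. All 5 tested leukotriene genes were higher in the cornea, against the same 40.2%. Ltb4r1, Ltb4r2 and Mgst2, near 0 in the TG, passed the filter through the cornea, so this count is a description too. Ltb4r1 and Ltb4r2, the receptors of leukotriene B4, were at 0.407 ± 0.527 and 0.0659 ± 0.198 CPM in TG and at 20.7 ± 2.72 and 18.8 ± 3.32 CPM in cornea, and Mgst2 at 0.515 ± 0.552 and 6.40 ± 2.31 CPM. The median log2 differences were 0.88 for arachidonic acid release, -0.63 for the prostanoid enzymes, 5.84 for the receptors and -3.74 for the leukotriene genes, and none of the 3 other lipoxygenases passed the filter. The medians of the receptors and the leukotriene genes carry the same limit as their counts.

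No tested gene of the set passed in the TG after deletion of miR-183C in sensory neurons or in myeloid cells. In the SNS strain 6 were tested and 0 passed, against 0.0392% of all genes (edgeR). The log2 change of Ptgds was 0.12 ± 0.21 (adjusted p = 0.945). At an unadjusted p under 0.05 there was 1 gene, Ptges3, against 6.67% of all genes, and DESeq2 also called 0. Ptges3 was at 245, 231 and 255 CPM in SNS-CKO and 186, 228, 216 and 190 CPM in WT, without overlap (0.25 ± 0.09, adjusted p = 0.597; exact two-sided permutation test p = 0.0571). Alox5, removed by the filter, was at 0, 0.488 and 0 CPM in SNS-CKO and at 0.877, 2.07, 1.12 and 0.593 CPM in WT, also without overlap, with an exact two-sided permutation p of 0.0286 that is the smallest 3 against 4 libraries allow and was not adjusted over genes. Ranges failed to overlap for 7.29% of all genes tested. Without any 1 of the 7 libraries the log2 change of Ptgds ranged from -0.34 to 0.47.

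In the MS strain 5 genes of the set were tested in the TG and 0 passed, against 0% of all genes, with 0 at an unadjusted p under 0.05 (2.98% of all genes) and 0 by DESeq2. Ptgds had a log2 change of -0.15 ± 0.17 (adjusted p = 0.999; exact two-sided permutation p = 0.587). No gene of the set had ranges without overlap, against 0.513% of all genes tested. Between the strains, the effect of deletion on Ptgds in the TG differed by 0.27 ± 0.34 (log2, SNS minus MS, interaction term, adjusted p = 0.998), and 0 of 6 genes passed, against 0.00728% of all genes, with 0 at an unadjusted p under 0.05 (4.17% of all genes). A p above the threshold does not show that the levels were equal: for Ptges the SE in the SNS strain was 0.42 and for Alox15 0.47 on the log2 scale.

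In the cornea, deletion in sensory neurons went with a lower Ptgds level, the pattern for which the set was chosen. The log2 change was -1.42 ± 0.24 (SE), or 2.68-fold lower, with all 3 SNS-CKO libraries below all 4 WT libraries. Leaving out each library in turn gave -1.82 to -1.13. Of the 10 genes, 7 passed the filter in this contrast, and 2 had ranges without overlap, Ptgds and Alox12e. Ranges did not overlap for 6.31% of all genes tested. That share is no measure for these genes, since Ptgds was chosen for this pattern and Alox12e was removed by the filter. Alox12e had 0 counts in all 4 WT libraries and was at 3.67, 0.751 and 0.411 CPM in SNS-CKO. Alox15 was at 2.67, 1.88 and 0.205 CPM against 3.34, 3.60, 0.423 and 3.62 CPM (-1.004 ± 0.69), Ptgs1 at 41.7, 27.0 and 24.6 CPM against 36.8, 42.5, 29.6 and 47.3 CPM (-0.35 ± 0.21), and Ptges2 at 14.3, 21.4 and 17.2 CPM against 17.4, 12.8, 8.45 and 12.2 CPM (0.46 ± 0.26). The log2 change was 0.12 ± 0.32 for Ptges, which holds the miRNA sites, 0.22 ± 0.13 for Ptges3 and 0.14 ± 0.17 for Alox12. All SNS-strain libraries carried the B2 tag. Under the other reading of the column names, in which the untagged libraries are the SNS strain, the change of Ptgds was -0.99 and those of Ptges and Ptges2 turned negative (-0.47 and -0.42).

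In the MS strain the cornea gave 9 tested genes of which 0 passed, against 0% of all genes, and DESeq2 also called 0. At an unadjusted p under 0.05 there were 2, Ptgds and Alox15, against 3.56% of all genes, and none had ranges without overlap (0.634% of all genes). Ptgds had a log2 change of -1.19 ± 0.53 (unadjusted p = 0.0359, adjusted p = 0.999 by edgeR; exact two-sided permutation p = 0.151). Without MS-strain WT library 1, which had the highest lens sum, the change was -0.35 ± 0.43, and without library 2, which had the second highest, it was -1.35. With the tag as a covariate it was -0.96, and within the untagged libraries -0.99. Alox15 was at 1.28, 0.791, 1.61, 2.05 and 3.01 CPM in MS-CKO and at 8.26, 6.53, 5.56, 2.70 and 0.357 CPM in WT (-1.48 ± 0.56, unadjusted p = 0.0161, adjusted p = 0.999 by edgeR; exact two-sided permutation p = 0.19). The 3 highest and the lowest Alox15 values of the 10 corneas were all WT, and the lowest was WT library 5, which carries the B2 tag. Among the tested genes of the pathway lists, 0 passed in any CKO comparison or in the TG interaction.

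**Figure D3:**
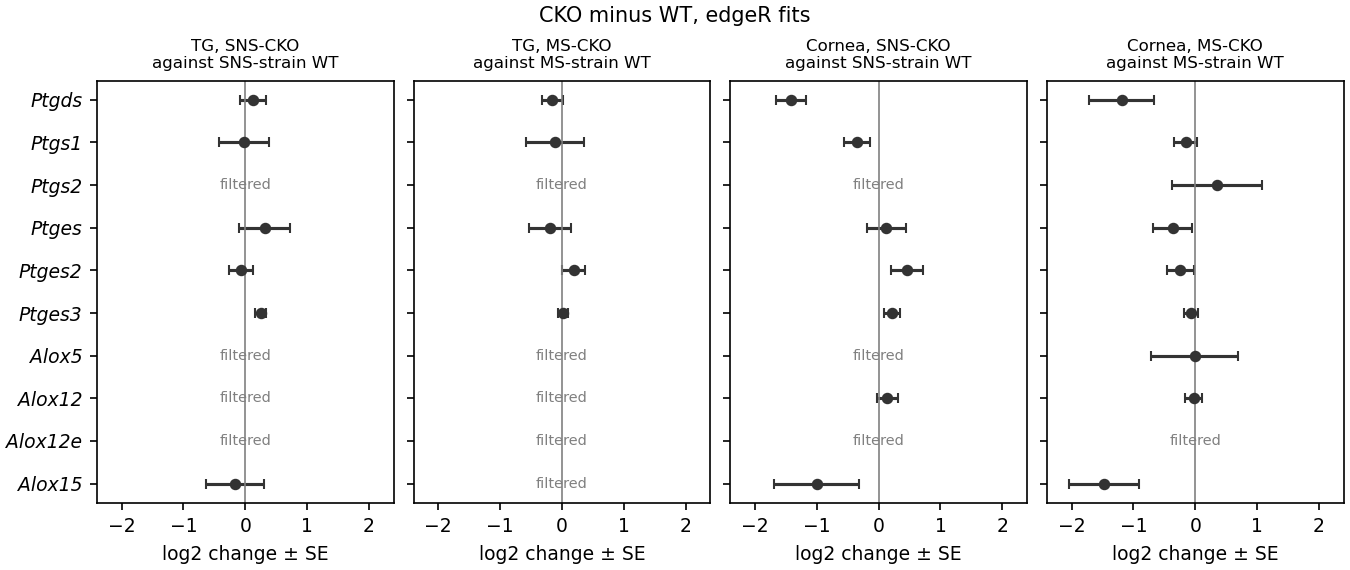
Log2 change (CKO minus WT, edgeR) with its SE for each of the 10 genes in TG and cornea of the SNS and MS strains; genes removed by the filter on low counts are marked. Ptgds lies at -1.42 and -1.19 in the corneas and at 0.12 and -0.15 in the ganglia; the SNS cornea panel chose the set and carries no test.

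Across the 17 corneas, Ptgds varied with Dct, the dopachrome tautomerase of melanin synthesis and a gene of melanocytes. After the mean of each strain and genotype group was taken away, the Pearson r of log2(CPM + 0.5) was 0.946 (Spearman's coefficient 0.917), the highest among the 8405 genes whose mean reached 10 CPM. With group means kept it was 0.935. Without the 2 libraries farthest from the median of Dct r was 0.892, without MS-strain WT library 1 it was 0.931, and within the untagged and the tagged libraries it was 0.969 (n = 7) and 0.953 (n = 10). These r are descriptions over libraries that share depth and tag. Dct itself was at 23.0, 22.5 and 13.8 CPM in the SNS-CKO corneas and at 51.8, 41.6, 22.8 and 38.3 CPM in the SNS-strain WT corneas (log2 change -1.01 ± 0.25). In the MS strain it was at 54.9, 16.9, 31.1, 5.74 and 21.3 CPM in MS-CKO and at 88.8, 34.4, 29.1, 26.6 and 25.7 CPM in WT (-0.62 ± 0.41, adjusted p = 0.999 by edgeR). In each strain the Dct groups overlapped.

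Ptgds per Dct (the ratio of their CPM) was 2.35, 2.35, 2.72 and 2.36 in the SNS-strain WT corneas and 2.28, 1.43 and 1.58 in SNS-CKO. The ratio was also lower in all 3 SNS-CKO libraries, 1 of them narrowly (2.28 against 2.35), and by less than the Ptgds level itself (2.45 ± 0.18 against 1.76 ± 0.45, SD). It holds the same Ptgds values by which the gene was chosen, so it is a description and does not show a fall beyond that of Dct. The ratio was 1.29 ± 0.33 in MS-CKO and 1.86 ± 0.54 in MS-strain WT corneas, with overlap. The whole list of 6 melanocyte and iris markers summed to 15.4 to 31.0 CPM in SNS-CKO and 30.9 to 62.2 CPM in SNS-strain WT corneas, and to 7.79 to 60.7 and 29.6 to 101 CPM in the MS strain, and its r with Ptgds was 0.943. Most of that sum was Dct: over the corneas Tyr reached 2.67 CPM, Tyrp1 6.30, Pmel 6.82, Mlana 3.34 and Slc45a2 0.317. The part of these cells in the Ptgds result was not tested. The r of the other marker lists with Ptgds ran from -0.44 (corneal endothelium) to 0.61 (erythrocyte). It was 0.55 for retina, 0.41 for satellite glia, 0.33 for lens, -0.08 for the 10 keratocyte genes and -0.24 for the epithelium. In the TG, where Ptgds was high, Dct was at most 2.26 CPM.

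**Figure D4:**
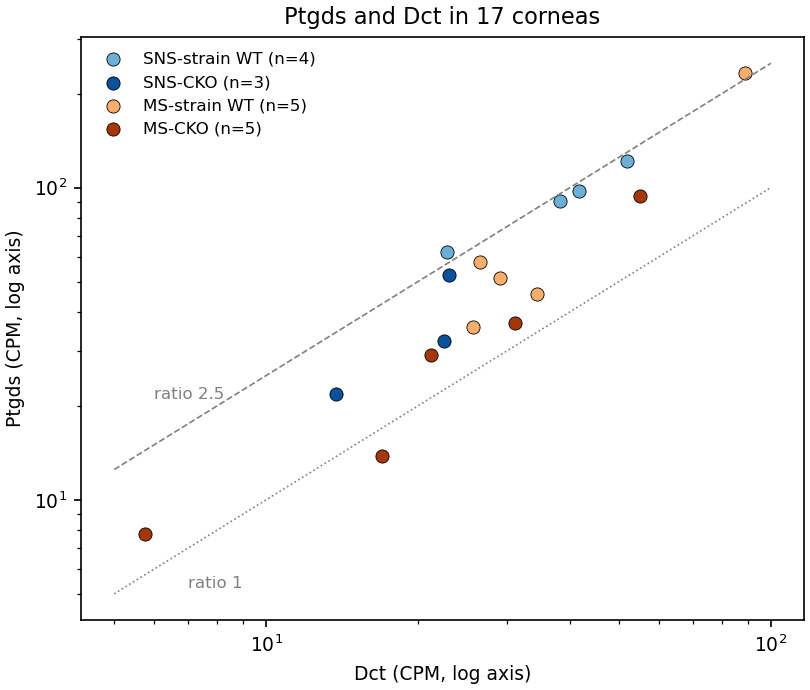
Ptgds against Dct in the 17 corneas (CPM, log axes), each point 1 library, with lines of equal Ptgds per Dct ratio. The points rise together from 7.79 and 5.74 CPM to 232 and 88.8 CPM, and the 3 SNS-CKO libraries lie below the 4 SNS-strain WT libraries in Ptgds but overlap them in Dct (13.8 to 23.0 against 22.8 to 51.8 CPM).

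The promoters of Ptgds and Dct (250 bases before to 50 after the start, RefSeq, GRCm38.p6, minus strand of each) are shown because the genes varied together. Capitals mark CANNTG, read on both strands, the E-box core within which CATGTG, the E-box known for the melanocyte factor Mitf, is contained. The promoter of Ptgds (chr2:25469700-25469999) held 3 CANNTG and 0 CATGTG, and that of Dct (chr14:118052197-118052496) 2 of each, the same 2 positions. Of 32851 promoters of this length, 72.3% held CANNTG and 14.2% held CATGTG, and 9 of the 10 genes of the set matched a promoter entry, none with CATGTG.
Ptgds: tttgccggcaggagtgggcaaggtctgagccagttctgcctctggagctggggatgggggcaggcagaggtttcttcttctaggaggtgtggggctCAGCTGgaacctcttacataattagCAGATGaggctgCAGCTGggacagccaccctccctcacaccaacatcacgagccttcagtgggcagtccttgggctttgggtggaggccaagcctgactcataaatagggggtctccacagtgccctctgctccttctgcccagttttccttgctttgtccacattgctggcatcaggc
Dct: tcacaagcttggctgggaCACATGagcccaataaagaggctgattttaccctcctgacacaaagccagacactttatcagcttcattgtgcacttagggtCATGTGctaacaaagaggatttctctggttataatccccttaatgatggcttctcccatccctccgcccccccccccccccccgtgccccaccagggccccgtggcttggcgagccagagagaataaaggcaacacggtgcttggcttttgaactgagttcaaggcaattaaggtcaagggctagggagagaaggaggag

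After Dct, the cornea genes most like Ptgds were Ankrd40 (r = 0.84), Ptma (0.79), Mrps22 (0.78), Pde9a (0.76), Rbl2 (0.76), Klhl24 (0.76), Cdca2 (0.76), Il1rn (0.75) and Rhoq (0.75), and the most opposed were Supt20 (-0.83), Nfat5 (-0.83), Mad2l1bp (-0.82), Ankle2 (-0.81) and Slc33a1 (-0.81). In the 17 ganglia the gene most like Ptgds was Efemp1, an extracellular matrix glycoprotein, with r = 0.919 among 9434 genes (Spearman's coefficient 0.841, and 0.865 for Pearson without the 2 libraries farthest from the median). Fmod, a collagen-binding proteoglycan, followed (0.84), then Pacsin1 (0.78), Pla2g3 (0.78), a secreted phospholipase, Zfp536 (0.77), Galk1 (0.76), Nit2 (0.76), Rab3a (0.75), Gjb6 (0.74) and Morn4 (0.73). The most opposed were Alg6 (-0.81), S100a4 (-0.78), Efhd1 (-0.78), Mpp1 (-0.75) and Rtn2 (-0.75). The summed level of 7 leptomeningeal and fibroblast markers had an r of 0.841 with Ptgds in the TG (0.752 and 0.903 within the untagged and the tagged libraries). The r was -0.48 for the Schwann cell list, -0.23 for satellite glia and 0.16 for sensory neurons. The keratocyte list, which holds collagen and other matrix genes, had -0.15. The melanocyte and iris list had the lowest, -0.65, where the cornea gave 0.943, and summed to only 1.80 to 14.2 CPM in the ganglia. The leptomeningeal and fibroblast sum was at 174, 255 and 329 CPM in the SNS-CKO ganglia, lowest in library 3 and highest in library 2 as Ptgds was, and at 211 to 269 CPM in SNS-strain WT. Most of that sum was Igf2 and Mgp (medians of 69.4 and 78.3 CPM over the ganglia, against at most 15.9 CPM for the other markers). The part of these cells in the TG level of Ptgds was not tested.

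In the sorted cells the set was read in some pools and had 0 counts in others. The CRMC against spleen comparison, with the 4 mouse sets as blocks, tested 4 genes (Ptgs1, Ptgs2, Ptges3 and Alox5), of which 0 passed, against 2.01% of all genes, and 0 had an unadjusted p under 0.05 (23.8% of all genes, edgeR), whereas DESeq2 called all 4. Alox15, removed by the filter, was the only gene of the set whose pools did not overlap (28.4% of all genes). It had 0 counts in all 4 CRMC pools and 1.36, 61.2, 27.7 and 34.8 CPM in the spleen pools of KO-strain WT, KO, MS-strain WT and MS-CKO. Alox5 was at 118, 37.1, 154 and 46.9 CPM in the same spleen pools and at 0, 49.6, 0 and 25.4 CPM in the CRMC pools (adjusted p = 0.556). The spleen pools also held neutrophil genes (4 markers summed to 14856 to 31076 CPM, against 0 to 518 in CRMCs), and their part in the Alox5 and Alox15 levels was not tested.

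Ptgs2 and Alox5 were higher in both null CRMC pools than in their WT pools. Both null pools also had more detected genes, 3488 in KO against 1650 in KO-strain WT and 6455 in MS-CKO against 3380 in MS-strain WT. The part of this difference in the Ptgs2 and Alox5 levels was not tested. Ptgs2 was at 0 CPM in KO-strain WT, 178 CPM (750 counts) in KO, 8.52 CPM (56 counts) in MS-strain WT and 222 CPM (2396 counts) in MS-CKO. With 1 pool a group there is no test. The KO pool was at least 134-fold higher than its WT pool, set against 3 counts in the WT library, a bound for counting error only. The MS-CKO pool was 26.0-fold higher (95% exact interval 20.0 to 34.5, counting error only). Alox5 was at least 37.4-fold (KO) and 55.5-fold (MS-CKO) higher than in WT pools with 0 counts, again set against 3 counts in the WT library. Among genes with at least 50 counts in a pair of pools, at least 2-fold differences were found for 92% of genes between the KO and WT CRMC pools and for 87.7% between the MS-CKO and MS-strain WT pools, so these folds stand among many. In the spleen Ptgs2 was read only in the KO pool (10.7 CPM). Corneal epithelial markers summed to 41774 and 42154 CPM in the KO and MS-CKO CRMC pools against 13687 and 10322 CPM in their WT pools, and their part in the Ptgs2 levels was not tested. Ptgs2 in whole cornea was at most 6.15 CPM.

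The other CRMC values were of single pools. Ptges was at 149 CPM in MS-strain WT and 39.6 CPM in MS-CKO (ratio 0.266, 0.237 to 0.299) and at 0 in the KO and KO-strain WT pools. The 10 keratocyte markers summed to 66189 and 59727 CPM in the MS-strain WT and MS-CKO pools, against 7696 in KO and 12873 in KO-strain WT, and their part in the Ptges levels was not tested. Ptgs1, Ptges2 and Ptges3 were read only in the MS-CKO pool (33.3, 61.8 and 45.9 CPM), the CRMC pool with the most counts and detected genes. In the spleen, Alox5 was lower in both null pools than in their WT pools (ratios 0.316, 0.271 to 0.368, and 0.305, 0.274 to 0.339), where at least 2-fold differences were found for 69.2% and 59.4% of genes. Ptges3 went opposite ways in the spleen (25.5 to 42.4 CPM from WT to KO, 67.9 to 33.8 CPM from WT to MS-CKO). Ptgs1 was at 30.9 and 0 CPM in KO-strain WT and KO and at 11.05 and 3.37 CPM in MS-strain WT and MS-CKO. Alox12 and Alox12e, like Ptgds, had 0 counts in all 8 pools.

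**Figure D5:**
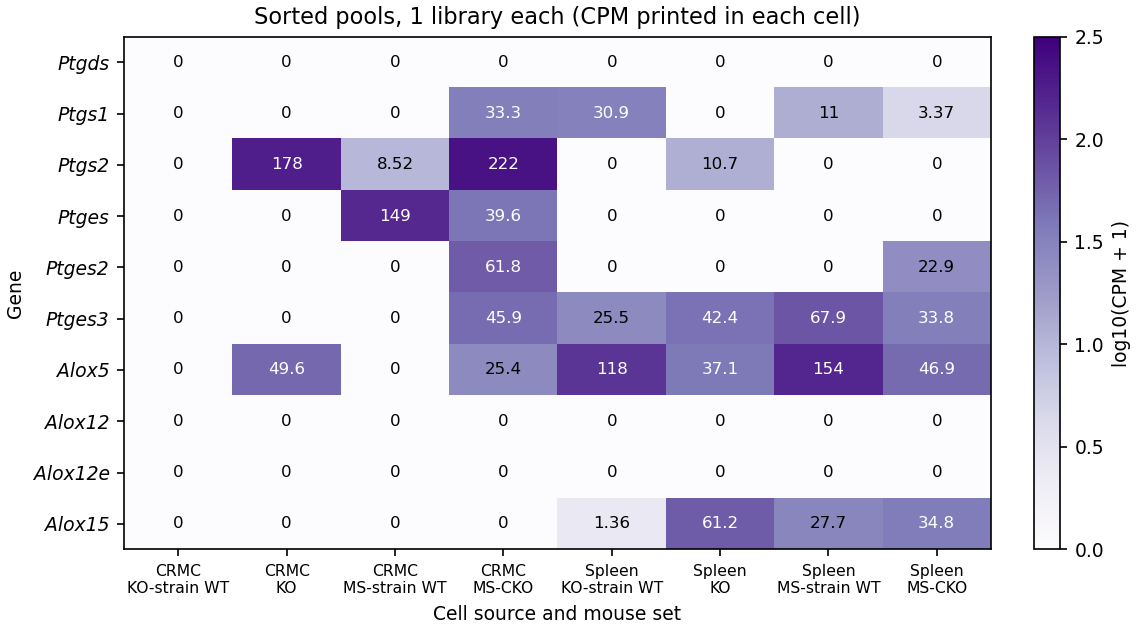
Level of each of the 10 genes in the 8 sorted pools, 1 library each; the number is the CPM and the shade is log10(CPM + 1). Ptgs2 is at 178 and 222 CPM in the KO and MS-CKO CRMC pools and at 0 and 8.52 CPM in their WT pools, and Alox15 is above 0 in spleen pools only.

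Of the pathway lists, 14 genes were tested between CRMC and spleen pools and 0 passed (edgeR). The smallest adjusted p were those of Fpr2 (0.0572), a formyl peptide receptor, Ltb4r1 (0.0926) and Ggt5 (0.205), all of the leukotriene list. Fpr2 and Ltb4r1 had 0 counts in all 4 CRMC pools and were at 142 to 379 and 30.7 to 217 CPM in the spleen pools. The fitted differences are not given, since the median over all genes tested was -6.73 on the log2 scale and most genes were all or none in a pool.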

How the data were processed

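Libraries were made with a QuantSeq 3′ FWD kit. By the study's methods, alignment was to mm10 (STAR) and the authors tabulated counts for each gene by HTSeq, versions of both not given in the sources used here. Unnormalized counts were deposited in 54 columns, of which 42 were used, 11 repeat others and 1 matched no sample label. Columns with NACC in their names were read as the SNS strain. Counts were tested with edgeR 4.0.16 in R 4.3.3 (TMM, filterByExpr, quasi-likelihood), with DESeq2 1.42.0 as an alternative; the SE is the log2 change divided by the square root of F. The fits were tested on simulated data. CPM are counts over the column total, log values use a pseudocount of 0.5, and a count of 0 was given a limit of 3 counts. Intervals are exact, 95%, and cover counting error only. P-values measure the spread between libraries.

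The 10 genes, the pathway lists and the marker lists were chosen with earlier results of these data known. The text names every gene of the set, up to 3 genes of each pathway list with the smallest p in TG against cornea and in CRMCs against spleen, and the 10 genes most like and 5 least like Ptgds by Pearson r. Of the lists, 12 of 13 prostanoid enzyme symbols were in the table. KO-strain TG and cornea were not analysed here.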

Additional observations from a re-analysis of the deposited data

Results flagged for a closer look

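In 55 groups of 4 or 5 libraries, the highest or lowest value was set against the others by the gap to its nearest neighbour over the range, and 6 groups had a library past the 95% critical value (0.829 for 4 libraries and 0.71 for 5), where chance gives about 1 in 20. Ptgds was at 232 CPM in cornea MS-strain WT library 1 against 35.7 to 57.9 CPM in the other 4, and Alox12e was at 87.9 CPM in the same library against 0 to 2.501 CPM. Alox15 was at 0.423 CPM (1 count) in cornea SNS-strain WT library 3 against 3.34 to 3.62 CPM in the others. Alox12e was at 0 in cornea MS-CKO library 2, where the other 4 were at 0.401 to 0.426 CPM. Ptgs2 was at 0.517 CPM in TG SNS-strain WT library 2 and at 0.520 CPM in TG MS-strain WT library 1, 2 counts each, with 0 in the other libraries of both groups.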

How the results depend on the processing

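Of 882 values recomputed under alternatives, 870 kept their side of the threshold and moved less than the limits used. With no filter on low counts, 2 genes of the set passed in the MS-strain cornea, Ptgds (-1.18, adjusted p = 2.38e-07) and Alox12e, both with MS-strain WT library 1 in the fit. DESeq2 called 4 in CRMCs against spleen (Ptgs1 -8.58, Ptgs2 6.72, Ptges3 -8.99, Alox5 -5.97), against 0 by edgeR. Over all genes, calls rose from 5, 0, 0 and 1 to 33, 11, 27 and 18 with no filter in TG SNS, TG MS, cornea MS and the TG interaction. In CRMCs against spleen they were 130 with the set block, 1256 with no replicate block, 4079 by DESeq2, 23 in WT pools alone and 70 to 172 leaving out each set; TG SNS gave 2 to 11 leaving out each library, 8 with the replicate block, 3 in a fit of all 4 groups and 0 under the other strain reading. The TG interaction called 4 by DESeq2, 2 with the block, 1 to 3 leaving out each library and 0 under the other reading, where TG MS gave 1. In TG against cornea 5 to 9 genes of the set passed over all alternatives. Under the other strain reading the SNS cornea changes of Ptges, Ptges2, Ptges3 and Alox15 were -0.47, -0.42, -0.13 and -2.22. Replicate numbers were not used as pairs in the main fits of TG and cornea, and whether same-numbered libraries share an animal is not known. After group means were taken away, same-numbered CKO and WT libraries correlated at -0.15 to 0.14 in the MS-strain corneas and -0.15 to 0.28 in the MS-strain ganglia. TG and cornea of MS-strain WT mice correlated at 0.04 to 0.21. These correlations cannot decide the pairing. With the replicate block Ptgds in the cornea was -1.44 (SNS) and -1.22 (MS, adjusted p = 0.65 by edgeR). The cause of these differences was not tested. Genes near 1 CPM rest on a few counts a library.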
